A study of Caenorhabditis elegans with 2 samples.

Results

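The regions described here are the windows around the 5' ends of transfer RNA (tRNA) genes, examined for binding of a tagged transcription factor in Caenorhabditis elegans larvae. A window ran from 1000 bp upstream to 200 bp downstream of the 5' end of each nuclear gene with the Ensembl biotype tRNA in build WBcel235, which is the same assembly as ce11. The rule gave 612 windows, out of 46890 windows drawn in the same way for all nuclear genes, of which 19973 belonged to protein-coding genes. The data are lists of peaks from chromatin immunoprecipitation followed by sequencing (ChIP-seq) on sonicated chromatin of whole L2 larvae, males and females pooled, in 2 biological replicates. Both replicates were of strain OP178, with genotype unc-119(ed3) III; wgIs178, where wgIs178 is an integrated transgene that makes SKN-1 with GFP-FLAG at its C terminus. There was no second condition, and whole animals do not show in which cells a peak arose. The antibody and strain labels name skn-1, whereas the free-text description of both samples names PHA-4, so the labels disagree on the protein.

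tRNA genes are short genes present in many near-identical copies and are transcribed by RNA polymerase III. Their promoter lies inside the gene, where an A box and a B box are bound by the factor TFIIIC, which places TFIIIB just upstream of the gene to recruit the polymerase. SKN-1 is a bZIP-related factor known for the oxidative stress response and for early endoderm, and PHA-4 is a forkhead factor known for the pharynx; both are studied as regulators of genes read by RNA polymerase II. tRNA genes also appear in the peak lists of many factors in several organisms.

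The 612 tRNA genes had a median length of 72 bp, from 64 to 122 bp, and only 200 distinct sequences. RefSeq gave an amino acid for 607 of them, of 21 kinds including selenocysteine. Chromosome X held 276 tRNA genes, or 45.1%, although it holds 13.7% of the protein-coding genes and 17.7% of the nuclear bases. Of the tRNA genes, 293 (47.9%) lay within a protein-coding gene, and 260 windows (42.5%) overlapped a protein-coding promoter, defined with the same window around an annotated 5' end. The windows merged into 477 loci, and together they covered 0.649% of the nuclear genome.

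The stretches shown are those at the 6 strongest optimal peaks with a summit within 300 bp of a tRNA gene, each 240 bases long on the strand of the gene (WBcel235 sequence from RefSeq). Capitals mark the tRNA gene. Their summits are near the gene by this choice, so the closeness in them is not a result. Counted from the first base of the stretch, the summit lay at base 72 for F42A10.t1 (serine, chrIII:6158690-6158929, plus strand). It lay at base 65 for F38G1.t2 (aspartate, chrX:489802-490041, minus strand) and at base 111 for F46G11.t2 (proline, chrX:5801126-5801365, minus strand). It lay at base 106 for C33G3.t2 (lysine, chrX:14063862-14064101, minus strand), at base 83 for B0350.t1 (lysine, chrIV:5967074-5967313, plus strand) and at base 158 for T28B4.t1 (phenylalanine, chrX:6593513-6593752, plus strand). The gene begins at base 89, 103, 84, 84, 87 and 84 in the same order. The B box word GTTCGANNC begins at base 150 in F42A10.t1, 136 in C33G3.t2, 139 in B0350.t1 and 136 in T28B4.t1, and these letters are not in the stretches of F38G1.t2 and F46G11.t2.
F42A10.t1: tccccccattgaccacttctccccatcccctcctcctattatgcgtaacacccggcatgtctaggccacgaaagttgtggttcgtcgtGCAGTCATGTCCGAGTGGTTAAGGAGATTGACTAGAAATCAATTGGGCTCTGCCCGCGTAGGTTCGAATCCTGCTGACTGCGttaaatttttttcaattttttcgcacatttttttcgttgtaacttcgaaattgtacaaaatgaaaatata
F38G1.t2: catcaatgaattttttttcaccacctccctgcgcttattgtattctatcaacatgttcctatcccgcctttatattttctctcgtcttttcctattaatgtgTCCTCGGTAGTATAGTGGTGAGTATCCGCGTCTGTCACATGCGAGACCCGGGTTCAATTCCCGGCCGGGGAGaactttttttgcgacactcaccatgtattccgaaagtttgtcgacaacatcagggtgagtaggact
F46G11.t2: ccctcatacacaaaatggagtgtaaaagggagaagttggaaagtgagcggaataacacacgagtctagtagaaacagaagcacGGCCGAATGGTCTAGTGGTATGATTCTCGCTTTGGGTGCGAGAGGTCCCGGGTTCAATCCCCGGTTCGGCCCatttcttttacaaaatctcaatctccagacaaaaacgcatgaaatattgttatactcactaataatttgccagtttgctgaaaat
C33G3.t2: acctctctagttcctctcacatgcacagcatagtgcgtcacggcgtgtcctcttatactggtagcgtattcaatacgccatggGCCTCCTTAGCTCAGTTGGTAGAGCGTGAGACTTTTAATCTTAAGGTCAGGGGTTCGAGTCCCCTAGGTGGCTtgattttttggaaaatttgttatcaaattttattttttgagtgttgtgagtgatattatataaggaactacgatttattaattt
B0350.t1: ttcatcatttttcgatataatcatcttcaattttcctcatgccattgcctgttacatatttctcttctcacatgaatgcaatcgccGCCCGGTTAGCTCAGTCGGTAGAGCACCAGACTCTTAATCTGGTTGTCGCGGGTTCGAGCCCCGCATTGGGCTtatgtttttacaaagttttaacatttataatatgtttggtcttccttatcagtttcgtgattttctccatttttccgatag
T28B4.t1: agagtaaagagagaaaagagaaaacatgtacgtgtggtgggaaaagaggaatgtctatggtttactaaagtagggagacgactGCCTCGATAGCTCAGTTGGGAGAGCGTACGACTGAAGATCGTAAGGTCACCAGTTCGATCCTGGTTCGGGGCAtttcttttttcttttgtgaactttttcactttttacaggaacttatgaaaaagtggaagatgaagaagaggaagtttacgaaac

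The optimal list, the peaks that passed the threshold of the irreproducible discovery rate procedure, placed a summit in the windows of 22 of 612 tRNA genes. That is 3.59% (exact 95% interval 2.27 to 5.39), against 3.63% of protein-coding windows and 1.03% of end-to-end 1200 bp stretches of the nuclear genome. tRNA windows were therefore occupied at the rate of protein-coding ones in this list. Of the 870 nuclear optimal summits, 18 fell in a tRNA window, or 2.07% (1.23 to 3.25). Because neighbouring windows overlap, 13 summits lay in 1 window and 5 in 2 windows, which makes 23 pairs of a summit and a gene. Intervals here cover the counting of genes or summits only, since read depth is unknown in the peak lists and overlapping windows are not independent.

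The summits in tRNA windows sat at the tRNA genes themselves. The median distance from an optimal summit to the nearest tRNA 5' end was 62 bp (exact 95% interval of the median 27 to 110, n = 18). The distances fell into separate sets: 14 summits lay within 110 bp of the 5' end and the other 4 at 375, 761, 904 and 960 bp upstream. Of the near 14, 10 were upstream of the 5' end and 4 downstream, and all 14 lay within 100 bp of the gene body. Only 2 of the 18, at F46G11.t2 and C33G3.t2, lay inside a tRNA gene, and no other optimal summit lay inside one. In 50 bp bins a summit counts once for each gene near it, here and in the longer lists below. The optimal list had 7 such counts from 100 to 50 bp upstream of the tRNA 5' end (11.4 per 1000 genes). It had 5 from 50 bp upstream to the 5' end (8.17 per 1000 genes). The first bin counts the summits shared by the C53C7 and M02F4 gene pairs once for each gene, so its lead rests on these repeats. At protein-coding 5' ends the densest bin was 200 to 150 bp upstream, at 5.16 per 1000 genes.

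**Figure D1:**
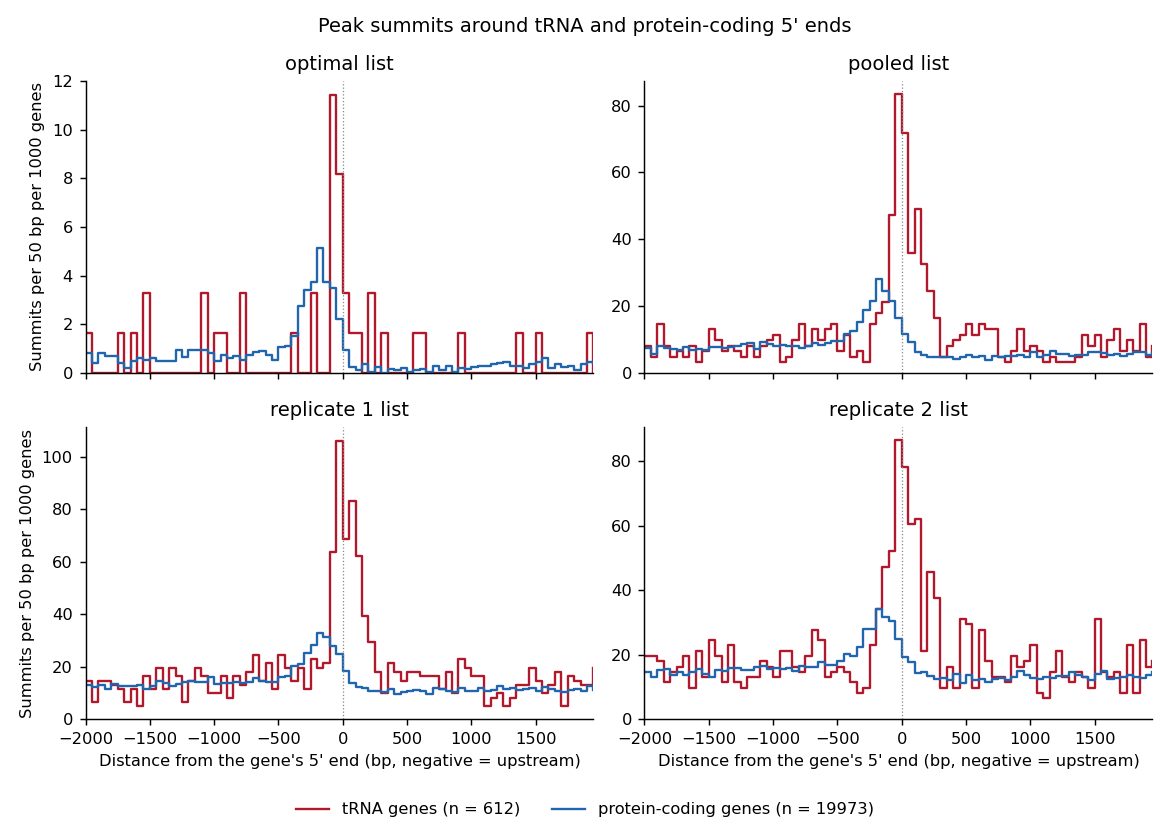
Summits per 50 bp and per 1000 genes against the distance from the gene's 5' end in bp, for 612 tRNA genes (red) and 19973 protein-coding genes (blue), with 1 panel per peak list. A summit counts once for each gene in range. In the pooled and both replicate lists the tRNA curve is highest from 50 bp upstream to the 5' end, closer to the gene than the protein-coding maximum at 200 to 150 bp upstream.

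The relaxed lists, which hold peaks and background and are far longer than the optimal list, had their maximum at tRNA genes in the bin next to the 5' end. In the bin from 50 bp upstream to the 5' end of tRNA genes there were 83.3 summits per 1000 genes in the pooled list, 106 in the replicate 1 list and 86.6 in the replicate 2 list. The densest protein-coding bin, 200 to 150 bp upstream in all 3, held 28.0 in the pooled list, 32.8 in the replicate 1 list and 34.2 in the replicate 2 list. The 2 replicate libraries thus each placed their tRNA maximum in the same 50 bp. Upstream and downstream were more even in these lists: pairs of a summit and a tRNA gene at 100 to 1 bp upstream and at 0 to 99 bp downstream numbered 80 and 66 in the pooled list, 104 and 93 in replicate 1, and 85 and 85 in replicate 2, whereas the optimal list had 12 and 3.

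Over whole windows the relaxed lists held more tRNA genes than protein-coding genes. In the pooled list, with 13300 nuclear peaks, 274 tRNA windows (44.8%, 40.8 to 48.8) had a summit, against 26.7% of protein-coding windows and 14.6% of 1200 bp stretches. In the replicate 1 list, with 24771 nuclear peaks, 353 tRNA windows (57.7%) had one, against 37.7% of protein-coding windows and 26.2% of stretches. In the replicate 2 list, with 28606 nuclear peaks, 344 tRNA windows (56.2%) had one, against 40.4% of protein-coding windows and 29.6% of stretches. Both relaxed replicate lists marked the windows of 239 tRNA genes (39.1%), against 23.9% of protein-coding genes, and neither marked 154 tRNA genes (25.2%), against 45.8% of protein-coding genes.

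The contrast was larger at the gene itself. A summit lay within 100 bp of the gene body at 182 tRNA genes (29.7%) in the pooled list, against 6.70% of protein-coding 5' ends given the same median span of 272 bp and 3.59% of stretches of that length. The protein-coding span began 100 bp upstream of the 5' end, so it left out the protein-coding maximum at 200 to 150 bp upstream. The part of this placement in the contrast was not tested. The shares were 38.6% of tRNA genes against 10.1% of protein-coding 5' ends and 6.67% of stretches in the replicate 1 list, and 34.8% of tRNA genes against 11.1% of protein-coding 5' ends and 7.67% of stretches in the replicate 2 list. In the optimal list the shares were 2.61% of tRNA genes, 16 in number, against 0.721% of protein-coding 5' ends and 0.236% of stretches. All 3 relaxed lists had a summit within 100 bp of the same 105 of 612 tRNA genes. The pooled list is drawn from both replicates, so the 3 lists are not independent. This overlap was not counted for protein-coding 5' ends or stretches, so 105 is not read as low or high.

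Over whole windows, which class of gene had the higher share varied with how far down the list the peaks were taken. Among the 500 strongest pooled peaks a summit marked 11 tRNA windows (1.80%), against 2.18% of protein-coding windows. With so few windows and no interval computed, this gap is not read as a lead. At 872 peaks, the length of the optimal list, the shares were those given above for that list. At 1500 peaks they were 7.19% of tRNA and 5.83% of protein-coding windows, at 2500 peaks 12.3% and 8.67%, and at 5000 peaks 24.0% and 14.3%. By rank, 1.61% of pooled summits ranked 1 to 872 lay within 100 bp of a tRNA gene, 2.46% of those ranked 873 to 2500, 1.88% of those ranked 2501 to 5000 and 0.880% of those ranked 5001 to 7500. Such bases make up 0.164% of the nuclear genome, so each of these bands was above it.

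**Figure D2:**
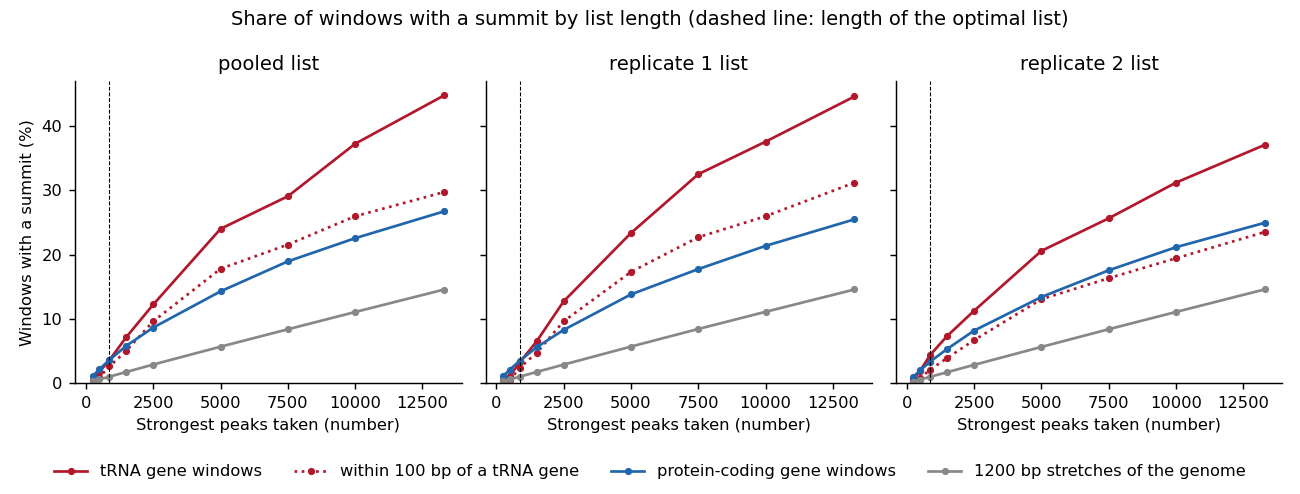
Percent of windows with a summit against the number of strongest peaks taken from the pooled, replicate 1 and replicate 2 lists, for tRNA windows (red), spans within 100 bp of a tRNA gene (dotted red), protein-coding windows (blue) and 1200 bp stretches (grey). The tRNA and protein-coding lines meet near the dashed line at 872 peaks, and the tRNA line is the higher one beyond it in all 3 panels.

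The replicates were also compared at equal length. Among the 872 strongest peaks of replicate 1, 20 tRNA windows (3.27%) had a summit, against 3.51% of protein-coding windows. Among the 872 strongest of replicate 2, 27 tRNA windows (4.41%) had one, against 3.37% of protein-coding windows. Of these genes, 16 from replicate 1 and 15 from replicate 2 were also among the 22 of the optimal list. Both replicate sets shared 9 genes, and all 9 of them were in the optimal list. The same overlap was not counted for protein-coding windows, so 9 is not read as low or high. Taken to 13302 peaks, the full length of the pooled list, the replicate lists marked 44.6% of tRNA windows in replicate 1 and 37.1% in replicate 2.

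Within the optimal list the tRNA peaks were of middling to low strength. The deposited signal, the peak caller's enrichment on the scale of its own list, had a median of 51.2 for the 18 tRNA peaks and 54.5 for the other nuclear peaks, and the median rank was 518.5 for tRNA peaks and 432.5 for the others. The 14 near peaks ranked between 270 and 870 of 872, with signals from 43.3 to 64.1. All 18 tRNA peaks overlapped a peak in both replicate lists. Of the 852 other nuclear optimal peaks, 851 overlapped a replicate 1 peak and 841 a replicate 2 peak. The replicate lists ranked the tRNA peaks unequally. The matching replicate 1 peak was among that list's 872 strongest for 12 of the 18 tRNA peaks (66.7%), against 82.6% of the other optimal peaks, and the matching replicate 2 peak for 14 of 18 (77.8%), against 60.8% of the others. Both matches were that strong for 8 of the 18 (44.4%), against 48.0% of the others.

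**Figure D3:**
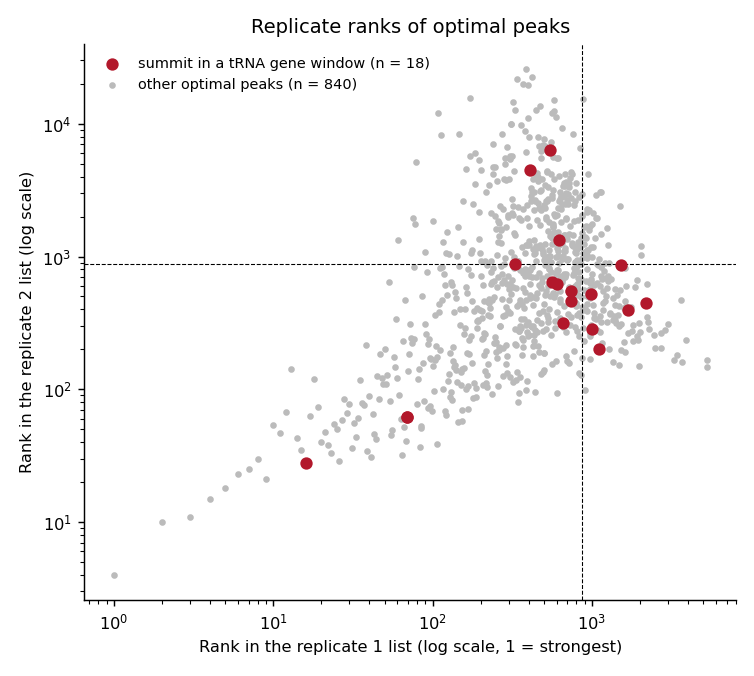
Rank of each optimal peak's matching peak in the replicate 1 list against its rank in the replicate 2 list (log scales, 1 = strongest), for the 18 peaks with a summit in a tRNA window (red, of which 2 coincide) and the other optimal peaks with a match in both lists (grey). Dashed lines mark rank 872. The tRNA peaks at C12C8.t5 and C47E8.t1 are among the strongest in both lists. The median rank in replicate 1 was 638.5 for the tRNA peaks and 441 for the other optimal peaks. In replicate 2 it was 490.5 for the tRNA peaks and 605 for the others.

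The strongest and second strongest peaks in tRNA windows lay far from the tRNA gene, but not every far peak was strong. The highest signal, 195.8 at rank 11, belonged to a summit 375 bp upstream of C12C8.t5, a glycine tRNA gene on chromosome I, and in the window of C12C8.t3, another glycine gene. It ranked 16 in replicate 1 and 28 in replicate 2, and it lay 13 bp downstream of the 5' end of the protein-coding gene cbl-1, named for cystathionine beta-lyase. The second, with a signal of 118.3 at rank 60, lay 960 bp upstream of C47E8.t1, a tyrosine tRNA gene on chromosome V, and 44 bp upstream of the protein-coding gene C47E8.11. It ranked 69 in replicate 1 and 62 in replicate 2. A second summit 761 bp upstream of C47E8.t1 had a signal of 50.6 at rank 539, and it matched the same replicate peaks, so the pair is not independent. The fourth far summit, 904 bp upstream of the lysine gene ZK994.t2 on chromosome V, had a signal of 49.6 and lay in an intron of pxn-1, which encodes a peroxidasin of the extracellular matrix. It ranked 1004 in replicate 1 and 283 in replicate 2.

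Near summits on autosomes occurred at 2 places. The strongest of all near summits lay 17 bp upstream of the serine gene F42A10.t1 on chromosome III and 204 bp upstream of its neighbour F42A10.t2, also a serine gene. It had a signal of 64.1, rank 270, and ranked 327 in replicate 1 and 884 in replicate 2. It also lay 692 bp upstream of nfm-1, the homologue of the tumour suppressor merlin. The summit at the lysine gene B0350.t1 on chromosome IV lay 4 bp upstream of it, inside the noncoding RNA gene B0350.73 on the opposite strand, with a signal of 52.2. It ranked 1105 in replicate 1 and was among the 872 strongest peaks of replicate 2.

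The other 12 near summits were on chromosome X, with signals from 43.3 to 57.6. At the aspartate gene F38G1.t2 the summit lay 38 bp upstream, in an intron of egl-17, which encodes a fibroblast growth factor, and ranked 607 in replicate 1 and 626 in replicate 2. At the proline gene F46G11.t2 it lay 27 bp inside the gene, which overlaps the noncoding RNA F46G11.11 on the other strand, and ranked 741 in replicate 1 and 463 in replicate 2. The neighbouring proline gene F46G11.t1, 217 bp away, shares this summit. At the lysine gene C33G3.t2 it lay 22 bp inside the gene and ranked 736 in replicate 1 and 551 in replicate 2. At the phenylalanine gene T28B4.t1 it lay 74 bp past the 5' end, directly beyond the 3' end of the gene and in an intron of the F-box gene fbxl-4, with ranks of 565 in replicate 1 and 643 in replicate 2. All 4 were thus among the 872 strongest peaks of both replicates.

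Of the remaining 8, the summit nearest to any tRNA 5' end was that of the proline gene ZK899.t1, 1 bp upstream, with a signal of 48.6 and ranks of 981 in replicate 1 and 518 in replicate 2. Divergent pairs shared summits at the serine genes C53C7.t2 and C53C7.t1, 57 and 74 bp upstream of them, and at the glycine gene M02F4.t1 and the glutamate gene M02F4.t2, 51 and 66 bp upstream. The C53C7 summit ranked 408 in replicate 1 but 4463 in replicate 2, and the M02F4 summit 623 in replicate 1 and 1331 in replicate 2. The summit 91 bp upstream of the leucine gene C04E7.t1 ranked 654 in replicate 1 and 317 in replicate 2. The matching replicate summits there lay 57 bp downstream of the 5' end in replicate 1 and 150 bp upstream in replicate 2. At the leucine gene C40H5.t1 the summit, 39 bp upstream, ranked 1685 in replicate 1 and 394 in replicate 2, and at the glycine gene K09C8.t1, 70 bp upstream, 2181 in replicate 1 and 443 in replicate 2. The summit of the aspartate gene F59C12.t2 lay 110 bp past its 5' end, in an intron of F59C12.3, and ranked 1525 in replicate 1 and 859 in replicate 2. Its matching replicate summits lay 84 bp downstream of the 5' end in replicate 1 and 99 bp upstream in replicate 2. At all other near peaks the matching replicate summits lay closer together than at C04E7.t1 and F59C12.t2. The weakest of the 18, with a signal of 43.3, lay 67 bp upstream of the glutamine gene R04A9.t1 and ranked 546 in replicate 1 but 6312 in replicate 2.

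**Figure D4:**
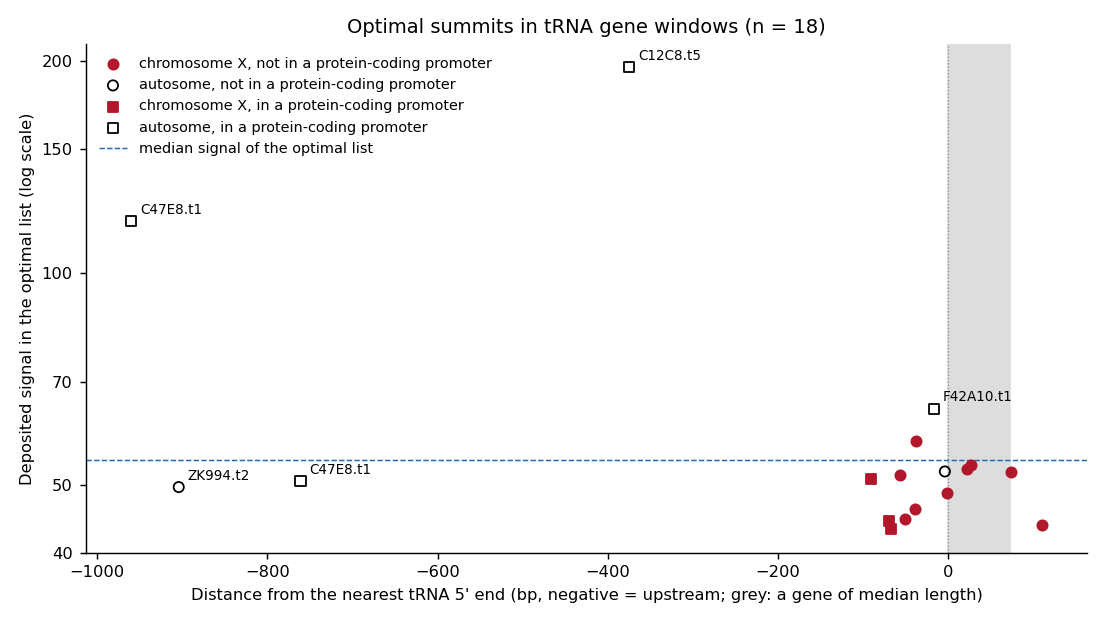
Deposited signal in the optimal list (log scale) against the distance in bp from the nearest tRNA 5' end for the 18 summits, by chromosome (filled red for X, open for autosomes) and by whether the summit also lies in a protein-coding promoter (squares). The 14 summits within 110 bp form a narrow cloud from 43.3 to 64.1, and the peaks above 100 on the signal axis are 375 and 960 bp upstream.

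The next pooled summits within 100 bp of a tRNA gene, just below the optimal list, were those of the histidine gene C06G1.t1 on chromosome X, 38 bp upstream at rank 921, the glycine gene K04C2.t2 on chromosome III, 47 bp downstream of the 5' end at rank 951, and the glutamate gene F01G12.t1 on chromosome X, 73 bp upstream at rank 983. Their signals were 42.4, 41.9 and 41.4, against 43.3 at R04A9.t1 inside the list. Of the 10 next such summits, 4 were upstream of the 5' end and 6 downstream. Taking the pooled list to 1500 peaks raised the tRNA genes with a summit in the window to 44, and those with one within 100 bp of the gene to 31.

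A minority of the tRNA summits could equally be given to a protein-coding promoter. Of the 18, 7 lay in one (38.9%, 17.3 to 64.3), against 588 of all 870 nuclear optimal summits (67.6%). The promoters were those of cbl-1, C47E8.11 with gasr-8, nfm-1, sor-3, nas-10 and ZK1193.2. The summit at C04E7.t1 lay 192 bp upstream of sor-3, that at K09C8.t1 255 bp upstream of nas-10, which encodes an astacin-type metalloprotease, and that at R04A9.t1 381 bp upstream of a 5' end of ZK1193.2. Of the other 11 summits, 4 lay in introns, 3 between genes, 2 in other noncoding genes and 2 in the tRNA gene. For the near 14 alone, 4 were in a promoter.

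Windows free of any protein-coding promoter still held summits. Among the 352 such windows, 10 (2.84%, 1.37 to 5.16) had an optimal summit, against 12 of the 260 windows that overlap a promoter (4.62%, 2.41 to 7.92). Pooled summits marked 40.6% of windows without a promoter and 50.4% of those with one. Within 100 bp of the gene, 26.7% of the tRNA genes with promoter-free windows had a pooled summit, against 33.8% of the others. The relaxed summits near tRNA genes were less often in a protein-coding promoter than all relaxed summits: 21.8% against 43.3% in the pooled list, 23.3% against 36.5% in replicate 1 and 25.1% against 34.7% in replicate 2. tRNA genes inside a protein-coding gene had a pooled summit within 100 bp in 25.9% of cases, against 33.2% of those outside.

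The optimal list held mostly tRNA genes of chromosome X. Windows with an optimal summit numbered 15 of 276 on X (5.43%, 3.07 to 8.81), against 7 of 336 on the autosomes (2.08%, 0.842 to 4.25). For protein-coding genes the optimal shares were 3.0% on X and 3.73% on the autosomes. Within 100 bp of the gene the difference was 14 tRNA genes on X against 2 on the autosomes. Each replicate by itself gave a like count: among its 872 strongest peaks, 12 of 15 near tRNA genes were on X in replicate 1 and 11 of 13 in replicate 2. It was smaller in the longer lists, where a summit within 100 bp marked 33.7% of X and 26.5% of autosomal tRNA genes in the pooled list, 42.8% and 35.1% in replicate 1, and 39.1% and 31.2% in replicate 2. The chromosomes also differ in how many copies their tRNA genes have, and among genes with at least 1 identical copy elsewhere the optimal counts were 14 of 219 on X against 2 of 250 on the autosomes. Pooled summits within 100 bp marked 39.3% of these genes on X and 29.2% on the autosomes. Single-copy genes had no such optimal summit, and in the longer lists their shares were lower on X: 12.3% on X against 18.6% on the autosomes in the pooled list, 24.6% against 26.7% in replicate 1 and 26.3% against 27.9% in replicate 2, over 57 genes on X and 86 on the autosomes. The part of copy number in the difference was not tested.

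Optimal summits occurred at single tRNA genes and at clusters, in 17 of the 477 merged loci (3.56%). With a share this low, the absence of a summit at a few loci is not read as a result. Of the 477 merged loci, 382 held 1 gene, 73 held 2 and 22 held 3 or more, and a summit of the optimal list fell in 12 of the single-gene loci (3.14%), 4 of the pairs (5.48%) and 1 of the larger loci (4.55%). These counts are small, and the shares were not compared by a test. Within 100 bp of the gene the optimal summits marked 10 genes in single-gene loci, 6 in pairs and none of the 84 genes in larger loci. Such a summit marked 2.61% of all tRNA genes, so its absence among 84 genes is not read as low. The locus with the most genes, F22F1.t2 to F22F1.t9 on X, with 7 genes for serine, aspartate and methionine tRNAs, had no optimal summit, 4 pooled summits, 4 in replicate 1 and 3 in replicate 2. The 6 histidine genes F28H6.t2 to F28H6.t7, also on X, had no optimal summit and 1 in each relaxed list. Loci of 5 genes, all on X and without an optimal summit, were K01A12, R04E5 and H08J11. Of these, R04E5 had no summit in the pooled or replicate 1 lists and 1 in replicate 2. The only called locus of 3 or more genes was C12C8, whose summit is the one at cbl-1. A pooled summit in the window marked 40.3% of single-gene loci's genes, 50% of genes in pairs and 56.0% of genes in larger loci, but within 100 bp of the gene the shares were 30.4%, 29.5% and 27.4%, without that order.

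tRNA genes for many amino acids were marked. The 22 genes of the optimal list comprised 4 of 39 serine genes, 4 of 55 glycine genes, 3 of 46 for lysine, 3 of 42 for proline, 2 of 27 for aspartate, 2 of 39 for leucine and 1 each for glutamine, glutamate, phenylalanine and tyrosine. None of the 34 alanine, 44 arginine or 34 threonine genes had an optimal summit, with upper 95% limits of 10.3%, 8.04% and 10.3%. The share over all tRNA genes, 3.59%, is below these limits, so their lack of a summit is not read as low. Valine, isoleucine, asparagine, histidine, methionine, cysteine, tryptophan and selenocysteine genes had no optimal summit either. In the pooled list alanine genes had the highest share with a summit within 100 bp among kinds with 10 or more genes, 44.1%. Valine followed at 41.9% and threonine at 41.2%. Arginine was at 18.2%, and histidine and asparagine at 15% each. The replicates placed several kinds differently. Methionine genes stood at 45.0% in replicate 1 and 15% in replicate 2, and tryptophan genes at 25.0% in replicate 1 and 58.3% in replicate 2, with 20 and 12 genes. Alanine stood at 47.1% in both.

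**Figure D5:**
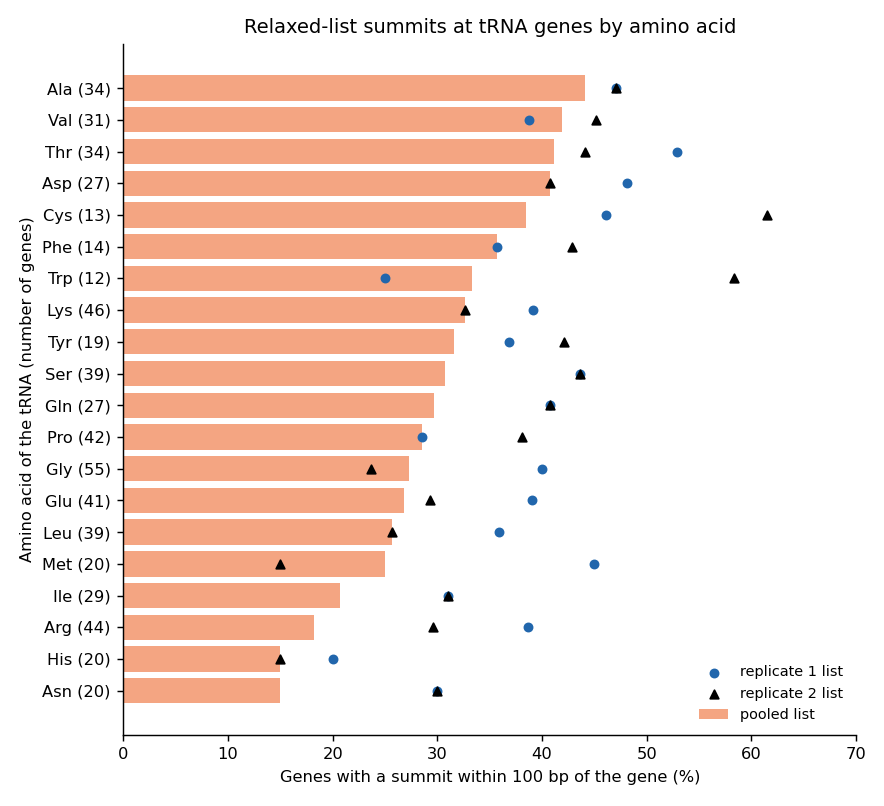
Percent of tRNA genes with a summit within 100 bp of the gene by amino acid, for the pooled list (bars), replicate 1 (blue circles) and replicate 2 (black triangles), with the number of genes in parentheses. Alanine is the highest pooled bar at 44.1% and histidine and asparagine the lowest at 15%, and the replicate points of most kinds lie above the pooled bar and those lists are longer.

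Copy number differed between marked and unmarked genes. Of the 612 tRNA genes, 143 (23.4%) had a sequence found at no other tRNA gene, the median was 10 identical genes and the maximum 29, each gene itself counted. None of the 16 genes with an optimal summit within 100 bp was single-copy, and none had a 36-base stretch found once in the genome, which held for 473 of all 612. Of single-copy genes, 16.1% had a pooled summit within 100 bp, against 34.2% of genes with 2 to 9 copies and 33.8% of genes with 10 or more. The order was the same for single-copy against other genes in both replicates, at 25.9% against 46.7% and 40.4% in replicate 1, and 27.3% against 35.5% and 37.9% in replicate 2. Reads that start within such a gene can match several genes, and how multiply matching reads were treated is not given in the labels or headers used here, so the part of this in the shares was not tested. Around the 18 summits themselves, 68.1 to 100% of the 36-base stretches within 100 bp were found once in the genome, with a median of 84.9%. These classes of copy number were chosen after the values were seen. Genes with the B box word GTTCGANNC, 441 in number, had a pooled summit within 100 bp in 28.8% of cases, against 32.2% of the 171 without it. The word is 1 exact spelling, so the 171 genes without it need not lack a B box.

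The sequence words tied to SKN-1 were not more common at the tRNA summits than at all optimal summits. Both strands were searched, up to 100 bp to each side of a summit. The 8-base SKN-1 word (A or T, A or T, T, A or G, then TCAT) was at 0 of the 18 tRNA summits, which allows up to 18.5%, against 27.6% of all 870 optimal summits and 9.97% of stretches of equal length centred 100 bp upstream of tRNA genes. Its core, ATCAT or GTCAT, with which the 8-base word always ends, was at 10 of 18 (55.6%), against 69.9% of all optimal summits and 57.2% of the upstream stretches. The word TGATAA was at 3 of 18 (16.7%), against 39.2% of all optimal summits and 20.8% of the stretches. GAGAGAGA was at 0 of 18, against 7.01% of all optimal summits and 3.27% of the stretches. CTGCGTC was at 1 of 18 (5.56%), against 12.3% of all optimal summits and 6.37% of the stretches. TGATAA, GAGAGAGA and CTGCGTC were searched besides the SKN-1 words. In the longer lists, where counts are larger, the 8-base word was at 13 of 174 pooled summits within 100 bp of a tRNA gene (7.47%), against 13.6% of all pooled summits. The shares were 9.05% against 12.2% in replicate 1 and 5.69% against 11.4% in replicate 2.

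The B box word GTTCGANNC was at 4 of the 18 tRNA summits (22.2%), against 1.26% of all optimal summits. It was in 5.72% of the stretches centred 100 bp upstream of tRNA genes. The word lies inside 441 of the 612 tRNA genes, so summits chosen for lying near these genes hold it by that choice. The contrast is not read as a result. Base composition moved with these counts: the sequence within 100 bp of the near summits had a GC content of 44.3 ± 4.37% (SD, n = 14 summits), against 38.6 ± 6.51% for all optimal summits (n = 870). Its part in the word counts was not tested.

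Other genes of short structured RNAs gave values for scale. In the optimal list a window summit marked 30 of 346 small nucleolar RNA genes (8.67%), 7 of 129 small nuclear RNA genes (5.43%) and 8 of 261 microRNA genes (3.07%), beside the 3.59% of tRNA genes. Within 100 bp of the gene the optimal shares were 2.61% of tRNA genes, against 2.02% of small nucleolar, 4.65% of small nuclear and 1.15% of microRNA genes. In the pooled list a summit lay within 100 bp of 29.7% of tRNA genes, against 23.7% of small nucleolar, 17.1% of small nuclear and 5.75% of microRNA genes. Over whole windows the pooled shares of tRNA and small nucleolar RNA genes were close, at 44.8% and 43.6%, with 25.6% of small nuclear and 23.0% of microRNA genes. The 209 tRNA pseudogenes that RefSeq lists, a set added after the tRNA values were seen, had no optimal summit, and 5 (2.39%, 0.781 to 5.49) had a pooled summit within 100 bp.

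Protein-coding genes for making and maturing tRNA were looked at alongside. None of 15 such genes had an optimal summit in its promoter, counting every annotated 5' end, where 3.89% of all protein-coding genes did. In the pooled list 4 of the 15 had one, near the 29.2% of all protein-coding genes and so no result about the list. They were mafr-1, whose homologues repress RNA polymerase III, elpc-1, a subunit of the Elongator complex that modifies tRNA, xpo-3, a homologue of the tRNA exporter, and rtcb-1, the ligase of tRNA splicing. The other 11, brf-1 of TFIIIB among them, had none.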

How the data were processed

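ChIP-seq peak lists for 2 biological replicates in 1 group were analysed: the optimal list, the pooled list and both replicate lists in build ce11. The deposited relaxed lists hold peaks and background prepared for the irreproducible discovery rate procedure, per the file headers. The aligner, peak caller, read length, filters, depth and rate threshold were not given in the sources used here. The deposited values for a peak are a signal, the caller's enrichment on the scale of its own list, and a −log10 q-value. All 872 optimal peaks were also the 872 strongest of the pooled list. The deposited ce10 lists and signal tracks were not used here.

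Summits (peak start plus the deposited offset, written 1-based) were counted in windows from the 5' ends of Ensembl release 115 genes. Names and amino acids came from RefSeq by gene identifier, which matched all 612 genes. No test was run, because there is 1 group: shares carry exact Clopper-Pearson 95% intervals. Those cover counting only. Members and lists were chosen with earlier results of these data known. Every tRNA gene with an optimal summit is named, with the loci of most genes and protein-coding genes whose promoter holds such a summit. Alternatives were other windows, overlap rules, promoter definitions, stronger peaks, full-width peaks and each replicate alone. The counting was checked on simulated positions. Python 3.11.15, numpy 2.4.6, pandas 2.3.3 and scipy 1.17.1 were used.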

Additional observations from a re-analysis of the deposited data

How the results depend on the processing

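Recomputation moved 6 values, given next, and left 30 within 1.5 times the count, or within the interval of the share or median, found with all peaks and windows. Among optimal peaks at or above the median signal 6 tRNA genes and 4 summits remained, with 75% of those summits in a protein-coding promoter and a median distance of 135.5 bp, since most near peaks lie below that median. tRNA windows then stood at 0.980%, against 1.95% of protein-coding windows. Windows that overlap no promoter gave 10 genes and 8 summits, from 352 windows in place of 612. With the 872 strongest peaks of 1 replicate alone the values ran from 20 to 27 genes, 15 to 19 summits, 31.6 to 40% in a promoter and a median of 34 to 41 bp. Window sizes from the gene body with 100 bp to each side up to 2000 bp upstream and 500 bp downstream gave 16 to 31 genes. No paired analysis was possible because there is 1 group. Unknown depth, 2 libraries and the handling of multiply matching reads limit all counts at these repeated genes.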

Other observations

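The 2 optimal peaks outside the nuclear chromosomes lay on the mitochondrial genome, at 13038 to 13307 with a signal of 2237, the strongest of the list, and at 13577 to 13794 with a signal of 100.9 at rank 85. Mitochondrial tRNA genes were not among the 612.

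Near tRNA genes, the pooled summits ranked higher than pooled summits in general, with a median rank of 4231.5 for the 174 near tRNA genes, against 6652.5 for all 13300. A q-value of at most 0.05 was given to 22.4% of those near tRNA genes, against 14.4% of all. In replicate 1 the same shares were 23.3% near tRNA genes and 10.1% of all, and in replicate 2 they were 24.6% near tRNA genes and 10.8% of all.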
